A study of Mus musculus with 2 samples.

Results

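Serotonin receptor genes were examined for open chromatin in the hippocampus of adult mice. The 10 members, Htr1a, Htr1b, Htr1f, Htr2a, Htr2b, Htr2c, Htr3a, Htr4, Htr6 and Htr7, were taken by name out of 21851 protein-coding genes with annotated start sites, and each was described over its gene body plus 10 kb to each side (GENCODE M21, mm10). The data came from DNase-seq, in which the nuclease DNase I cuts accessible DNA and the cut sites are sequenced. There were 2 samples in 1 group, biological replicates 1 and 2, and no treatment, mutant or control group. Each sample pooled 2 biosamples of hippocampal tissue from male B6CASTF1/J mice aged 8 to 10 months, the hybrid of a C57BL/6J and a CAST/EiJ parent. The labels speak of a layer of the hippocampus without naming it, and both samples carry 1 donor label, so the spread between replicates may be partly technical. With 1 group of 2 samples no test was possible, and values are given per replicate and as mean ± SD (n = 2).

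Serotonin reaches the hippocampus through axons of neurons in the raphe nuclei of the brainstem, where the serotonin neurons have their cell bodies. It acts there on a receptor family whose members couple to different signals. The Htr1 receptors act through Gi/o proteins, which lower cyclic AMP and open potassium channels; the Htr2 receptors act through Gq and phospholipase C; Htr4, Htr6 and Htr7 act through Gs, which raises cyclic AMP; and Htr3a encodes a subunit of a cation channel that serotonin opens directly. Many are made by only some cells of the hippocampus, and in bulk tissue fewer cells with an open site cannot be told apart from less opening per cell.

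The longer deposited peak lists held 144270 peaks in replicate 1 and 124426 in replicate 2. Height is the value the authors deposited for each peak, on a scale they did not state; the median over all peaks was 0.643 in replicate 1 and 0.639 in replicate 2. Heights were whole multiples of a step, 0.00656 in replicate 1 and 0.00646 in replicate 2, so a median peak stood 98 and 99 steps high. Where an interval is given for a height it is the exact 95% Poisson interval of its steps taken as cuts, and it covers counting error only. The promoters of all 6 markers of hippocampal excitatory neurons (Prox1, Wfs1, Grik4, Zbtb20, Neurod2, Camk2a) held a peak in both replicates. So did those of 4 of 7 interneuron, 3 of 3 astrocyte, 2 of 3 oligodendrocyte, 1 of 3 microglial and 1 of 3 endothelial markers. For choroid plexus and for raphe serotonin neurons it was 1 of 3 markers each, and for the cerebellum and hypothalamus 0 of 3. Over all protein-coding genes the share was 62.6%, so nothing about cell composition is read from these counts. Mean heights did not separate the lists either: Zbtb20 stood at 0.773 and the raphe marker Tph2 at 0.996.

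Receptor promoters were accessible but low. A promoter was taken as the window reaching 1000 bp either way from any annotated start of a coding transcript, and called open where a peak overlapped it in both replicates. By that rule 9 of the 10 receptor genes were open, against 62.6% of all protein-coding genes (13679 of 21851). Htr1f was open in replicate 1 alone, and no member was closed in both. The members were chosen with earlier results of these data known. Of 4 further serotonin receptor genes, described below, 2 were open and 2 were closed in both. The mean promoter heights of the 9 open members ran between 0.404 and 1.45, all below the median of 3.26 over the open genes of the genome. In the shorter, stricter list of the authors 7 of the 10 were open, against 58.0% of all genes.

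Sequence under these promoters is shown for 4 open members with the tallest promoter peaks (none is shown for Htr4) and for Htr1f, the member whose promoter lacked a peak in replicate 2. It is mm10 reference sequence, 5′ to 3′ on the strand of the gene, limited to the part of the peak outside annotated untranslated exons (for Htr1f, the bases just upstream of the start). Capitals mark bases inside a footprint of both replicates, a footprint being a short stretch that the authors called as protected from cutting within open chromatin.
Htr1a promoter peak, chr13:105442701-105442860 (+): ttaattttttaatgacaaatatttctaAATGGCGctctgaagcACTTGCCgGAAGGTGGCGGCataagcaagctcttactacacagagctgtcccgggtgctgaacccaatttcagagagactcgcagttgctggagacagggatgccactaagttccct
Htr3a promoter peak, chr9:48910881-48910965 (-): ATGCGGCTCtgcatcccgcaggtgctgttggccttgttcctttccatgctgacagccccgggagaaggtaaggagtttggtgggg
Htr6 promoter peak, chr4:139076041-139076192 (-): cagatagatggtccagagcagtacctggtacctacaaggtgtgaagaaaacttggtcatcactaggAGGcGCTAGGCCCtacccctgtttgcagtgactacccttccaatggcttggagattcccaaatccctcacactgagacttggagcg
Htr2b promoter peak, chr1:86111971-86112060 (-): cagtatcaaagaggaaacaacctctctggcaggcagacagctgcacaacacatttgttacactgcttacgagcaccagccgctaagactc
Htr1f promoter, chr16:65105855-65106034 (-): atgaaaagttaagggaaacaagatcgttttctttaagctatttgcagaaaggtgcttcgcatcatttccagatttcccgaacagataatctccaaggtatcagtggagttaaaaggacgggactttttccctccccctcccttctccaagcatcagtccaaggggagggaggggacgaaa

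In the Htr1a peak the footprints of both replicates covered 26 of 160 bases, in the Htr6 peak 12 of 152 and in the stretch shown for Htr3a 9 of 85. The Htr2b and Htr1f stretches had none that both replicates shared. The Htr3a sequence includes the start of the coding sequence.

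Among the Gi/o-coupled members, Htr1a had the tallest promoter peak in both replicates. Htr1a (ENSMUSG00000021721.5, chr13:105443639-105448122, plus strand) encodes the receptor that inhibits pyramidal neurons of the hippocampus, and in the raphe it is the autoreceptor of serotonin neurons. Its tallest promoter peak, at -779 bp from the start, was 1.48 high in replicate 1 (interval 1.29 to 1.68) and 1.41 in replicate 2 (1.23 to 1.61), a mean of 1.45 ± 0.0442. The counting intervals of the replicates overlapped. The peak stood at percentile 23.4 among the open promoters. A second broad peak, 742 bp inside the gene, reached 1.15 in replicate 1 and 0.969 in replicate 2. Htr1a carried 8 peaks in replicate 1 and 7 in replicate 2, and 7 of each were found in the other replicate. Beyond its 3′ end, 7962 bp from the start, stood a peak of 1.33 in replicate 1 and 1.70 in replicate 2, the only peak of Htr1a that was taller than its promoter in a replicate, and in replicate 2 only.

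Htr1b (ENSMUSG00000049511.5, chr9:81628291-81633828, minus strand) encodes the receptor found on axon terminals, where it limits transmitter release. Its promoter region was covered by several low peaks, the tallest 0.735 in replicate 1 and 0.626 in replicate 2 (mean 0.681 ± 0.0769, percentile 8.17 among open promoters). The annotated noncoding RNA D430036J16Rik lies over the same peaks, so the files do not assign them to Htr1b alone. The tallest site was downstream, 5415 bp from the nearer Htr1b start, at 2.03 in replicate 1 and 2.09 in replicate 2. The other 8 peaks of each replicate were at most 0.735 high, and 8 of 9 in each replicate were found in the other.

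Htr1f (ENSMUSG00000050783.5, chr16:64924729-65105854, minus strand), another Gi/o-coupled receptor, was the one member without a promoter peak in both replicates. Replicate 1 had a peak of 0.348 over the start (interval 0.261 to 0.455), with a lowest false discovery rate of 0.00725 and 317 bases of the promoter window listed by the authors at a false discovery rate of 0.05 or less. Replicate 2 had no peak and 0 listed bases there. In the decile of genes with a similar CpG ratio 88.6% were open. The peak nearest to the start in replicate 2 lay 75874 bp inside the gene, in an intron (chr16:65029761-65029980), and it was also the tallest of the gene, 1.88 in replicate 1 and 1.51 in replicate 2. Htr1f had 8 peaks in replicate 1 and 3 in replicate 2, and all 3 of the second set were found in the first. The other 5 of replicate 1 were between 0.249 and 0.348 high, low in the range of that library.

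The Gq-coupled members all had open promoters, and of the 3 only Htr2a held peaks in its gene body away from the promoter. Htr2a (ENSMUSG00000034997.5, chr14:74640840-74709494, plus strand), the receptor at which psychedelic drugs act, had promoter peaks of 0.473 in replicate 1 and 0.336 in replicate 2 (mean 0.404 ± 0.0967, percentile 2.52). These were 2 different sites, 61 bp and 361 bp inside the gene, each matched by a lower peak in the other replicate. In the stricter list the Htr2a promoter was open in replicate 1 alone. An intronic peak 2621 bp from the start was 2.22 high in replicate 1 and 2.73 in replicate 2, several times the promoter. A second intronic peak at 18701 bp was 0.984 in replicate 1 and 0.736 in replicate 2, and a peak in the 3′ untranslated exon was 0.683 in replicate 1 and 0.917 in replicate 2.

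Htr2b (ENSMUSG00000026228.6, chr1:86099026-86111970, minus strand), best known from heart valves outside the brain, lies inside the gene Psmd1, which encodes a proteasome subunit. A single peak over its start was 1.11 in replicate 1 (interval 0.948 to 1.29) and 0.730 in replicate 2 (0.601 to 0.877), a mean of 0.919 ± 0.268. The replicates stood further apart here than their counting intervals. Replicate 1 also had a downstream peak of 0.276 that replicate 2 lacked.

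Htr2c (ENSMUSG00000041380.13, chrX:146962513-147197277, plus strand), a receptor whose transcript is edited by adenosine deaminases, is on chromosome X, of which male mice carry a single copy. Its promoter peak was 0.610 in replicate 1 and 0.529 in replicate 2 (mean 0.570 ± 0.0572), against a median of 1.73 over the 462 open genes of chromosome X; 48.7% of the 948 genes of that chromosome were open. No peak of either replicate lay in the remainder of its 234765 bp gene body or in its flanks. All 3 peaks of replicate 1 and both of replicate 2 were at the promoter, and each was found in the other replicate.

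Htr3a (ENSMUSG00000032269.8, chr9:48899213-48911099, minus strand), the channel subunit, is made in the hippocampus by a class of interneurons. Its promoter peak was 1.33 in replicate 1 and 1.46 in replicate 2 (mean 1.40 ± 0.0898), and it lies over the start and the beginning of the coding sequence. The lowest false discovery rates there, 1.00e-13 in replicate 1 and 1.02e-17 in replicate 2, were the lowest of any member promoter. The site had 4 footprints in replicate 1 and 6 in replicate 2. A peak 16661 bp from the start, beyond the 3′ end, was taller, 1.86 in replicate 1 and 2.59 in replicate 2.

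The Gs-coupled members all had open promoters. Htr4 (ENSMUSG00000026322.9, chr18:62324204-62496577, plus strand) encodes a receptor of dentate gyrus and pyramidal neurons. Its tallest promoter peak was 0.932 in replicate 1 and 0.949 in replicate 2 (mean 0.941 ± 0.0122), the smallest spread among the open members. It lay inside the gene, 677 bp from the 5′ start in replicate 1 and 657 bp in replicate 2. The peak over the start itself was lower, 0.827 in replicate 1 and 0.736 in replicate 2. The open start was the 5′ one; 2 further starts inside the gene had no peak and 0 listed bases in either replicate. Inside the gene, in an intron (chr18:62454381-62454580), stood the tallest peak of all members, 3.31 in replicate 1 and 2.91 in replicate 2, above 93.5% of all peaks in replicate 1 and 92.4% in replicate 2. A further intronic peak reached 1.23 in replicate 1 and 0.962 in replicate 2.

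Htr6 (ENSMUSG00000028747.10, chr4:139061108-139075570, minus strand), a receptor of primary cilia on neurons, had a promoter of several separate peaks. The tallest was 1.06 in replicate 1, at -471 bp from the start, and 0.807 in replicate 2, inside the gene (mean 0.935 ± 0.181). The annotated gene Gm45533 overlaps the peak at -471 bp, so that peak is not assigned to Htr6 alone. None of the Htr6 promoter peaks was kept in the stricter list of either replicate. Peaks outside the promoter were taller: an intronic one (chr4:139068381-139068640 in replicate 1) at 1.83 in replicate 1 and 1.64 in replicate 2, one upstream at 1.42 in replicate 1 and 1.60 in replicate 2, and one downstream, inside the neighbouring gene Tmco4, at 1.73 in replicate 1 and 1.61 in replicate 2. Htr6 had 13 peaks in replicate 1 and 7 in replicate 2, and 7 of each were found in the other.

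Htr7 (ENSMUSG00000024798.15, chr19:35958734-36057507, minus strand) had the most CpG-rich promoter of the members and low peaks over it. The tallest was 0.453 in replicate 1 and 0.387 in replicate 2 (mean 0.420 ± 0.0463, percentile 2.84). These were different sites, over the start in replicate 1 and at -148 bp in replicate 2. Each was matched by a lower peak in the other replicate. The tallest site was intronic, 53940 bp from the start (chr19:36003141-36003400 in replicate 1), at 1.15 in replicate 1 and 0.859 in replicate 2. Htr7 had 7 peaks in each replicate, 5 of them found in the other.

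**Figure D1:**
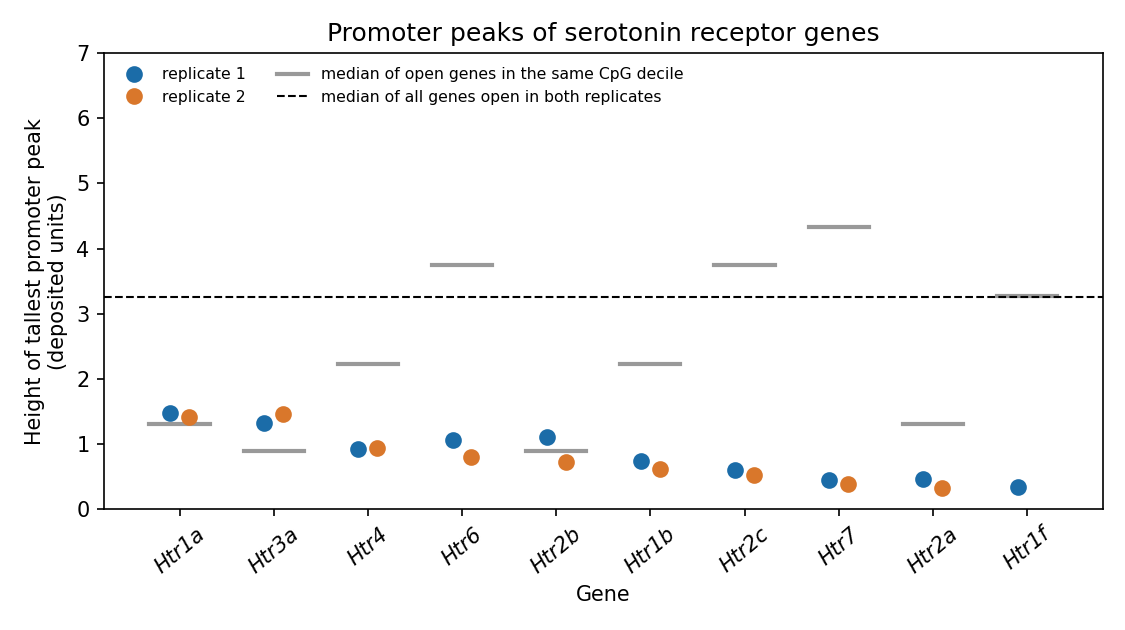
Height of the tallest promoter peak of each receptor gene (y axis, deposited units) in replicate 1 (blue) and replicate 2 (orange); grey bars give the median of open genes in the same CpG decile and the dashed line the median of all open genes, 3.26. Every point lies under the dashed line, and Htr1f has a point for replicate 1 alone.

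In order of mean promoter height the open members ran Htr1a, Htr3a, Htr4, Htr6, Htr2b, Htr1b, Htr2c, Htr7 and Htr2a. Htr1a and Htr3a differed by 0.0496, less than the larger SD of the pair, and their replicate values overlapped. The step down to Htr4, 0.455, was larger than the SDs. In the run of Htr4, Htr6, Htr2b and Htr1b, each step down to Htr1b was less than the larger SD. The steps between Htr1b and Htr2c (0.111) and between Htr2c and Htr7 (0.150) exceeded the SDs, whereas Htr7 and Htr2a differed by 0.0160, less than their SD. Neighbours that differed by less than their SD have no order with 2 replicates. The order is one of height alone. Htr6 had a lowest promoter false discovery rate of 0.00200 in replicate 1 and 0.000984 in replicate 2. That of Htr7, which stood lower in height, was 0.000229 in replicate 1 and 0.000183 in replicate 2. Htr7 kept a promoter peak in the stricter list in both replicates, and Htr6 in neither.

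The low rank of the members depended in part on which promoters they are compared with. Promoters rich in CpG dinucleotides are open in most tissues, so each member was set against its decile (1 of 10 equal groups) of all genes by CpG observed/expected ratio, measured over 500 bp either way from the start. Htr3a (ratio 0.190) and Htr2b (0.179) fell in a group of which only 8.83% of genes were open; among those that were, Htr3a stood at percentile 72.0 and Htr2b at 50.8. Htr1a (0.423) stood at percentile 55.1 of its group, in which 46.8% were open. Htr4 (0.487) and Htr1b (0.593) shared a group with 78.1% open and stood at percentiles 21.7 and 13.2. Htr2a (0.405), in the group of Htr1a, stood at 7.04. The CpG-rich members also stood low against their like: Htr6 (0.755) at 9.14 and Htr2c (0.744) at 3.16 in a group with 92.7% open, and Htr7 (0.886) at 0.906 in a group with 96.0% open. Htr7 was lower than all but 0.906% of the open promoters in its decile.

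**Figure D2:**
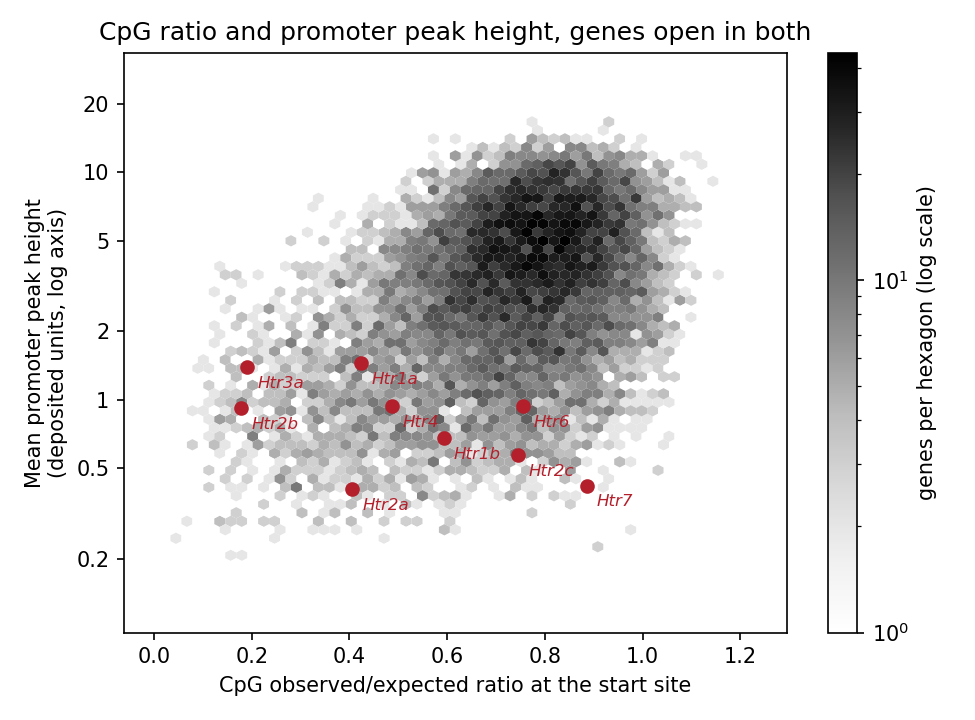
CpG observed/expected ratio (x axis) against mean promoter peak height of the replicates (y axis, deposited units, log axis) for the 13679 genes open in both replicates; hexagons are shaded by number of genes and red points are the 9 open receptor genes. Htr3a, Htr2b and Htr1a lie within the cloud at their CpG ratio, while Htr7, Htr2c and Htr6 lie along its lower edge.

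Taken over gene bodies and flanks, the members held 73 peaks in replicate 1 and 56 in replicate 2. Of these 50 (68.5%) and 49 (87.5%) were found in the other replicate, against 72.3% and 84.1% of all peaks. By place, own promoters held 30 peaks in replicate 1 and 25 in replicate 2, introns 22 and 16, downstream flanks 12 and 9, and upstream flanks 6 and 3. No peak lay at the promoter of another protein-coding gene. The median member peak was 0.604 in replicate 1 and 0.539 in replicate 2, somewhat below the medians over all peaks.

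**Figure D3:**
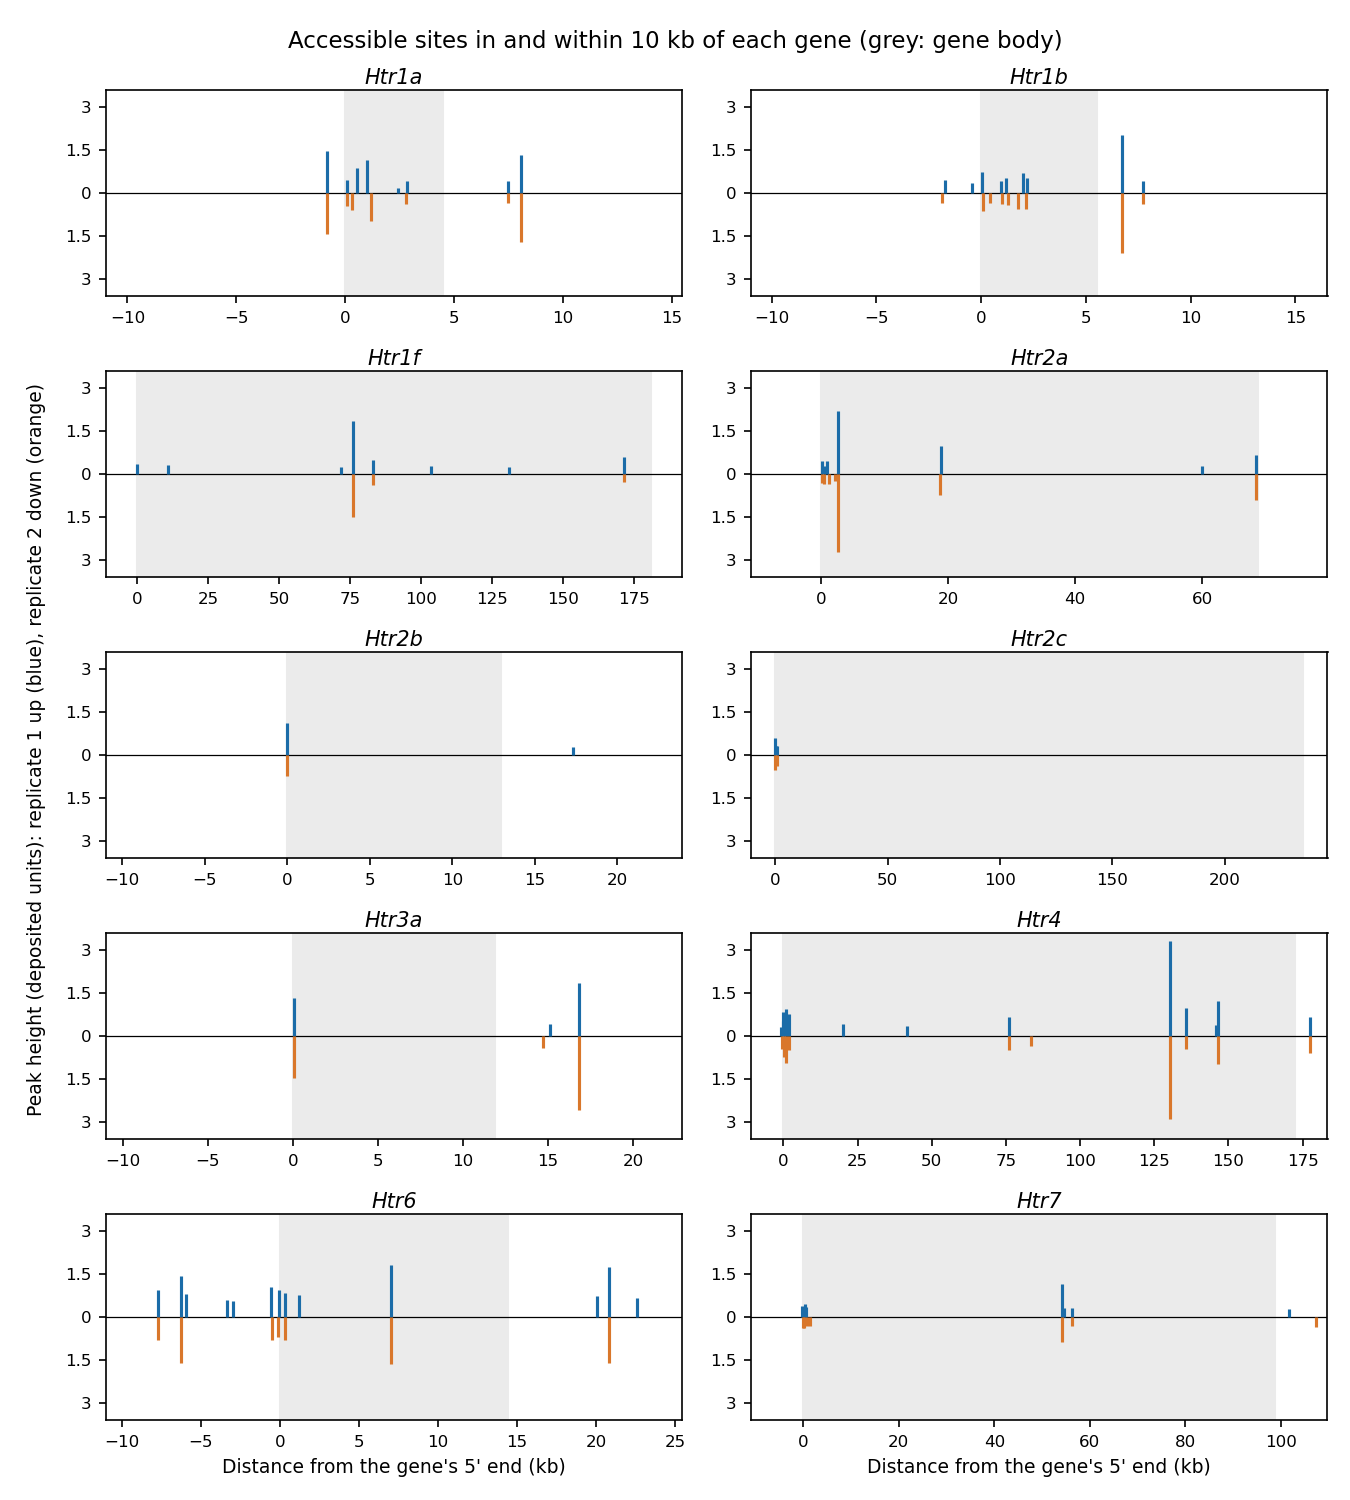
Every peak in the gene body (grey) and 10 kb flanks of the 10 receptor genes, by distance of its midpoint from the 5′ end of the gene (x axis, kb), with height drawn upward for replicate 1 (blue) and downward for replicate 2 (orange), in deposited units. The tallest peaks of Htr1b, Htr1f, Htr2a, Htr3a, Htr4, Htr6 and Htr7 stand away from the start in both replicates. That of Htr1a lies beyond the 3′ end in replicate 2 alone, and Htr2c has peaks at its start alone.

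Sites away from promoters were unevenly spread. Counting peaks at no protein-coding promoter per 10 kb of region, Htr6 had 1.89 ± 1.03 (percentile 97.1 of all genes), Htr1a 1.43 ± 0.289 (94.0) and Htr1b 1.17 (89.9, equal in both replicates). Htr3a had 0.627 (67.4), Htr2a 0.508 ± 0.0798 (59.5), Htr4 0.416 ± 0.0735 (51.1) and Htr7 0.337 (43.5). Htr1f had 0.249 ± 0.141 (36.5), Htr2b 0.152 ± 0.215 (28.2) and Htr2c 0 in both. The median over the members was 0.462, against 0.405 over all genes, and for chromosome X, where Htr2c lies, the median over all genes was 0.112. The high value of Htr6 rests on 9 such peaks in replicate 1 and 4 in replicate 2.

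Several of the tallest sites shared a sequence feature. Motifs were searched as exact letters on both strands in the 200 bp at the centre of each member peak. These were GGGCGG (SP/KLF), GCGNGGGCG (EGR), CGCATGCG (NRF1 core), TGACGTCA (CRE), TGANTCA (AP-1), CCGGAAGT (ETS), TTCAGCACC and GGACAGCGC (the left and right parts of the REST motif), CNAGGNGGC (CTCF core), TTGGCA (NFI), CAGATG (E-box), TAAAAATAG (MEF2), GTTGCCATG (RFX), AGAACA (corticosteroid receptors) and TATAAA (the box bound by TBP); the SP/KLF letters can overlap those of EGR and of the CTCF core. The CTCF core, part of the motif of a factor that anchors chromatin loops, was in the tallest peak of Htr4, Htr2a, Htr1b and Htr3a. Sequence is shown for Htr2a, Htr1b and Htr3a, with capitals again marking bases inside a footprint of both replicates. The Htr1b and Htr3a peaks were added after the values were seen, because they hold the CTCF core.
Htr2a intron peak, chr14:74643461-74643620 (+): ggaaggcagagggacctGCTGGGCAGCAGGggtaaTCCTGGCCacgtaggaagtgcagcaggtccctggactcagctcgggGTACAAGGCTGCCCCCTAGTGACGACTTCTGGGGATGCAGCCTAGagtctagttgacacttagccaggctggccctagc
Htr1b downstream peak, chr9:81627021-81627200 (-): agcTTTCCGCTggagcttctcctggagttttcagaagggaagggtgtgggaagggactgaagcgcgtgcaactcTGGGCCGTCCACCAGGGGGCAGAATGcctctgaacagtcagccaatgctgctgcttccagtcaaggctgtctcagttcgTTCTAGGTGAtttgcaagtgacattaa
Htr3a downstream peak, chr9:48894201-48894360 (-): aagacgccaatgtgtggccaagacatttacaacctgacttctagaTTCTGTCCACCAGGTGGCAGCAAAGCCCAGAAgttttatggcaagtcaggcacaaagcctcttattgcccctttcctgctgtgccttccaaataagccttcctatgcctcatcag

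In each of these 3 peaks, and in the Htr4 peak, the CTCF core overlapped a footprint of both replicates. Over all member peaks it matched 8 times, 6 of them overlapping footprints of both replicates. The share of such overlaps over all peaks was not counted, so nothing particular to the members is read from this. In the Htr6 promoter peak shown above the overlap is partial, as the capitals show. By window, 7 of 73 member peaks (9.59%) in replicate 1 and 6 of 56 (10.7%) in replicate 2 held it, against 6.78% and 7.37% of all peaks. Among tall peaks away from promoters, at or above the 85th percentile of height, the shares over the genome were 14.4% in replicate 1 and 18.2% in replicate 2. A match is a description of the letters, not evidence of binding.

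Other matches were scattered. The intronic Htr7 peak held the NRF1 core, overlapping a footprint of both replicates; this string was in 0.571% of all peak windows in replicate 1 and 0.645% in replicate 2. The tall Htr1f intronic peak held an AP-1 string and an E-box, and of these the E-box overlapped footprints of both replicates. The Htr1a promoter peak held the left REST part, TTCAGCACC, on the opposite strand of the sequence shown, outside any footprint; 0.335% of all windows in replicate 1 and 0.342% in replicate 2 had it. No member window held the ETS, MEF2 or RFX letters. SP/KLF letters matched 15 times, all outside footprints, and here too the share over all peaks was not counted.

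Footprints were found in 57 of 73 member peaks in replicate 1 and 49 of 56 in replicate 2, against 78.5% and 81.4% of all peaks. There were 145 footprints in replicate 1 and 116 in replicate 2, of which 63 (43.4%) and 61 (52.6%) were shared, against 49.1% and 52.1% of all footprints. Per 100 bp of peak the members had 0.849 in replicate 1 and 0.877 in replicate 2, against 1.03 and 1.12 over all peaks.

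Heights at the sites found in both replicates could be paired at 46 peaks. The median log2 height of replicate 1 over replicate 2 was 0.21 at the member pairs, against 0.19 over all 101938 pairs of the genome. Of the 46 member pairs 34 were higher in replicate 1. Genome pairs leaned the same way, with medians between 0.0520 and 0.322 over the deciles of height. The member ratios ran between -0.48 (the downstream Htr3a peak) and 1.21. Most lay within the central 95% of genome pairs of similar height; 2 did not, against 5.0% of all pairs. These were an Htr1f intronic peak, 0.610 in replicate 1 and 0.265 in replicate 2, and an Htr4 intronic peak, 0.965 in replicate 1 and 0.458 in replicate 2 (log2 ratio 1.07).

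**Figure D4:**
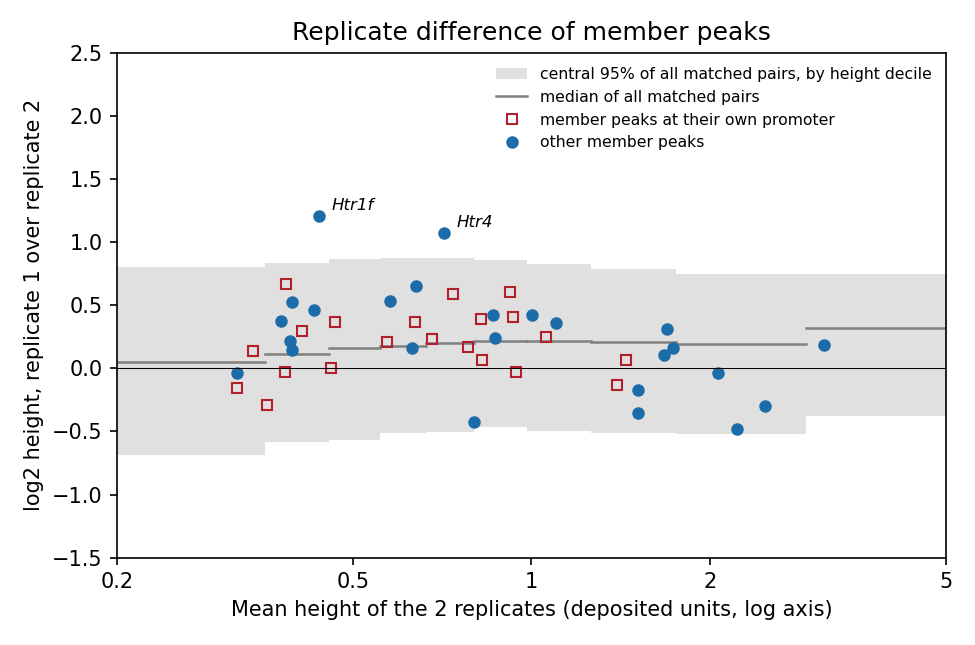
Log2 ratio of height, replicate 1 over replicate 2 (y axis), against mean height (x axis, deposited units, log axis) at the 46 paired member peaks; open red squares are peaks at their own promoter, blue circles the rest, grey bands the central 95% of all genome pairs by decile of height and grey lines their medians. The Htr1f and Htr4 points at 1.21 and 1.07 lie above the band.

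The other genes of the serotonin pathway were described by the same rule. Of 61 genes in 9 lists, 44 were open in both replicates, 4 in a single replicate and 13 in neither, beside 62.6% open of all protein-coding genes, so nothing particular to these lists is read from the count. Of the 4 serotonin receptor genes outside the main set, Htr5a (mean height 1.14 ± 0.248) and Htr5b (0.766 ± 0.161) were open. Htr1d and Htr3b, the second subunit of the channel, were closed in both. Both open ones lay within the range of the open members.

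The G proteins and effectors on which the receptors act had taller promoters in the median, beside 0.919 over the open members and 3.26 over all open genes. These lists were not compared within CpG deciles as the members were, so the part of CpG content in this difference was not tested. The median height of open genes was 0.902 in the decile of Htr2b and Htr3a and 4.33 in that of Htr7. All 8 genes of the Gi/o list were open, with a median height of 2.74. Gnaz, a Gi-family alpha subunit, reached 8.87 ± 1.75 and Gnai2 4.68 ± 1.16. All 10 genes of the Gs list were open with a median of 1.77. They were led by Prkaca, a catalytic subunit of protein kinase A, at 10.6 ± 3.21 and Adcy9, an adenylyl cyclase, at 3.45 ± 0.472. In the Gq list 6 of 8 were open with a median of 4.09, while the phospholipases Plcb3 and Plcb4 were closed. Gna11 led at 10.7 ± 4.26, followed by the inositol trisphosphate receptor Itpr1 at 6.13 ± 0.696. Among receptor partners and RNA editing enzymes 7 of 8 were open, and Jakmip1 was closed. The kinase genes Cdk5 (11.6 ± 2.32) and Fyn (6.36 ± 1.54) led.

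The lists for regulators of serotonin neurons and for serotonin transport, synthesis and breakdown hold 5 to 7 genes each. Their counts stand beside 62.6% open of all protein-coding genes, and no difference between the lists is read from them. Of the 6 regulators of serotonin neurons only Insm1 was open (0.863 ± 0.116), and Fev, Gata2 and Gata3 were among the 5 closed. Of the 5 transport genes Slc18a1 was open (7.74 ± 1.11), with a peak that also lies at the promoter of its neighbour Atp6v1b2. Slc18a2, the vesicular transporter of neurons, and Slc22a3 were closed, and the serotonin transporter Slc6a4 had a peak of 0.387 in replicate 1 alone. Of the 7 genes for serotonin synthesis and its cofactor 5 were open. The cofactor enzymes Pts (6.91 ± 1.80) and Qdpr (6.14 ± 1.32) led. Tph2, the tryptophan hydroxylase of neurons, was open at 1.04 in replicate 1 and 0.956 in replicate 2. Of the breakdown and conversion list 4 of 5 were open, and Asmt was closed. Aanat led at 6.09 ± 1.17. The monoamine oxidase gene Maoa followed at 2.77 ± 1.54, from 3.86 in replicate 1 and 1.68 in replicate 2.

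The false discovery rate files gave a further view of accessibility around the members. In their regions 22166 bases were listed at a rate of 0.05 or less in replicate 1 and 17593 in replicate 2. Of these 6224 in replicate 1 and 4872 in replicate 2 lay outside any peak. Htr2b had 286 listed bases in its promoter window in replicate 1 and 255 in replicate 2. Htr1a had 1359 in replicate 1 and 1360 in replicate 2.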

How the data were processed

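DNase-seq of 2 hippocampal samples of 1 group was analysed from deposited files. The authors deposited, for each sample, 2 peak lists with a height per peak (unit: signal, scale not stated), intervals listed where the local cut rate has a q-value, or false discovery rate, up to 0.05, and footprints. The deposited footprint rows all hold the constant 0.01, taken to be a p-value limit. Peaks and footprints were called per sample, on assembly mm10 per the labels; aligner and callers: not given in the sources used here. The CAST/EiJ allele was not analysed apart. Gene models were GENCODE M21 basic, and sequence was GRCm38. The longer list was used. A footprint or peak counted as shared at an overlap of 1 bp; peaks that were each other's best overlap were paired. Members, gene lists, markers and motifs were chosen with earlier results of these data known. The text names every member with its promoter, tallest and shared peaks, and up to 2 open and 3 closed genes per list; Tph2 and Slc6a4 are named as markers of serotonin neurons. Scripts were tested on simulated peaks (Python 3.11.15, numpy 2.4.6, pandas 2.3.3, scipy 1.17.1, bedtools 2.31.1, matplotlib 3.10.9).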

Additional observations from a re-analysis of the deposited data

How the results depend on the processing

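The count of 9 open members was the same with promoter windows of 500 or 2000 bp, gene 5′ ends, all transcripts, or peak midpoints; it was 7 in the stricter list, where Htr6 and Htr1f had no promoter peak in either replicate and Htr2a none in replicate 2. With a single replicate it ran between 9 and 10. Peaks per replicate averaged 64.5 (56 to 73 with a replicate left out), and were 34 in the stricter list and 99.5 with flanks of 50 kb. The share found in both, 78.0% on average, was 58.4% when a share of 0.5 of both peaks had to overlap and 94.1% for peaks at or above the median height. The median density of distal sites, 0.462 per 10 kb, was 0.274 in the stricter list, 0.290 without flanks and 0.355 with flanks of 50 kb. Footprints averaged 130.5, and 62 when only shared ones counted. Listed bases averaged 19879.5, with 8312.5 at a rate of 0.001 or less and 5548 outside peaks. The counts of peaks, footprints and listed bases change by construction, as does the share at the larger overlap. The share for taller peaks and the density at other flanks are not fixed in this way. The median density over all genes was taken with the 10 kb flanks alone. The log2 ratio of 0.21 was 0.01 after dividing by the median of matched peaks. Depth in reads is not known from these files, so a promoter without a peak was not detected at this depth, and peaks near the lower end of the range were often found in a single replicate.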
